A study of Mus musculus with 2 samples.

Results

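The genes described here are 10 members of the Hippo pathway and of the Fat4 and Dchs1 cadherin pair, out of 21938 protein-coding genes in the annotation. They were chosen by name, and their chromatin was taken as every peak that overlapped the gene body or the 2 kb upstream of it in mm10 (GRCm38, GENCODE M21). The list held Fat4 and Dchs1, the kinases Lats1 and Lats2, the coactivators Yap1 and Wwtr1 (which encodes TAZ), and the transcription factors Tead1, Tead2, Tead3 and Tead4. These genes took 123 of 159560 peaks in the Enl-WT library and 103 of 130027 peaks in the Enl-T1 library.

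In the Hippo pathway, a cascade of kinases ends in LATS1 and LATS2, which phosphorylate YAP and TAZ and keep them out of the nucleus. Where the kinases are quiet, YAP and TAZ enter the nucleus and bind TEAD proteins, which sit on DNA and switch on genes for growth and cell shape. FAT4 and DCHS1 are giant cadherins that bind each other across neighbouring cells, and in the embryonic kidney they are known for the exchange of signals between stroma and nephron progenitors.

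Kidneys of E15.5 mouse embryos were profiled by snATAC-seq, an assay that tags accessible DNA with a transposase and counts the tagged ends nucleus by nucleus. Enl-WT embryos were Enl+/+ Wt1 GFPCre/+, and Enl-T1 embryos were Enl flox-T1/+ Wt1 GFPCre/+, with 1 library in each group. T1 is a small in-frame insertion in ENL (Mllt1) found in Wilms tumour, carried on 1 allele and switched on by Cre. Both groups carried the Wt1 GFPCre knock-in, which takes up 1 Wt1 allele, and this Cre acts in the nephron and stromal lineages. Ureteric and endothelial nuclei are outside those lineages. The sources used here do not say how many embryos made up a library, and group and library cannot be told apart.

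The Enl-WT library held 9472 kept nuclei with a median of 14789.5 counts, and the Enl-T1 library held 12635 with a median of 8753. Of the barcode sequences kept, 149 occurred in both libraries, and 37 of these fell in the same class. Nuclei were clustered and named by markers, so each class carries the ending "-like". The classes compared between libraries were nephron progenitor-like (1931 Enl-WT and 4279 Enl-T1 nuclei), stroma-like (3257 and 5530), ureteric epithelium-like (886 and 1718) and endothelial-like (713 and 509). Their markers were present, with Six2 at 69.9 and 55.2 CPM (counts per 1000000 of the class total over the regions shared by the libraries) in progenitor-like nuclei of Enl-WT and Enl-T1, against 20.5 CPM in the median class. The progenitor-like clusters were each mostly of 1 library. Cluster 2 was made of 1910 Enl-WT and 91 Enl-T1 nuclei, cluster 0 of 15 and 2906, and cluster 6 of 6 and 1282. Such clusters may stand for the library and not for a cell state. Stroma-like clusters were mixed except for cluster 10 (2 Enl-WT and 1059 Enl-T1 nuclei) and cluster 14 (37 and 659). Cluster 8 (318 and 853), kept in the stroma-like class, was shallow, with a median depth of 0.42 relative to its library medians.

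Because each group was a single library, no replicate spread existed and nothing was tested. Every interval below is a 95% interval on fragments and covers counting error only. Classes were made from the same counts, so levels across classes are a description.

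The sequences of 8 open regions described below are shown first. They include the regions that varied most over the classes in Yap1, Wwtr1, Tead1, Fat4 and Dchs1, as well as 3 intronic regions with some of the largest ratios between the libraries in progenitor-like nuclei. Each is a window of 200 bases read 5′ to 3′ on the plus strand of the RefSeq genome GRCm38.p6. Capitals mark GGAATG or its reverse complement CATTCC, the core of the sequence that TEAD proteins are known to bind.

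The first window lies over an intron and a coding exon of Yap1, at chr9:7952856-7953055, in a region that was most open in progenitor-like nuclei. The other windows are intronic. Those of Wwtr1 (chr3:57516234-57516433) and Dchs1 (chr7:105767521-105767720) lie in regions most open in endothelial-like nuclei. That of Tead1 (chr7:112700109-112700308) was most open in ureteric nuclei and that of Fat4 (chr3:38923401-38923600) in stroma-like nuclei.
Yap1, 51.5 kb from the gene start: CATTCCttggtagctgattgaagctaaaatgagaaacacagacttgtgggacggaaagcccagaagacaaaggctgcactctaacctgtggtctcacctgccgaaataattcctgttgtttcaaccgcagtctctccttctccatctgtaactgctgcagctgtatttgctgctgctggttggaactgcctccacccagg
Wwtr1, 59.6 kb: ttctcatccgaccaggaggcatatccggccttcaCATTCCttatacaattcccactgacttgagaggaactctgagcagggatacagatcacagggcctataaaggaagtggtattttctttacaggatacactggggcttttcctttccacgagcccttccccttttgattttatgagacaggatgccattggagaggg
Tead1, 20.9 kb: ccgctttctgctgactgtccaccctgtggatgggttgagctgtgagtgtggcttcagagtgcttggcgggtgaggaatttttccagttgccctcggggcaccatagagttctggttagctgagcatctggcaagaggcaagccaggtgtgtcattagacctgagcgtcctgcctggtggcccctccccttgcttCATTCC
Fat4, 36.7 kb: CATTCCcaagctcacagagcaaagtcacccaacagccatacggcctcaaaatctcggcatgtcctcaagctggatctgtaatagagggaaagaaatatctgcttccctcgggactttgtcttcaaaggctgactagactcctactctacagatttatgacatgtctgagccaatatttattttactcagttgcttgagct
Dchs1, 19.7 kb: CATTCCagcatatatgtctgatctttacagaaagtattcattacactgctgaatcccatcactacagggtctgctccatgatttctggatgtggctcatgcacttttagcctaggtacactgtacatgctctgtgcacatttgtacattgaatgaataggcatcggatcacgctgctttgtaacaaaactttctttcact

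The next 3 windows lie in intronic regions whose ratio between the libraries in progenitor-like nuclei was far from 1. The Tead1 window (chr7:112892467-112892666) and the Wwtr1 window (chr3:57470677-57470876) lie in regions that were more open in Enl-T1. The Dchs1 window (chr7:105774766-105774965) lies in a region that was less open in Enl-T1.
Tead1, 213.4 kb: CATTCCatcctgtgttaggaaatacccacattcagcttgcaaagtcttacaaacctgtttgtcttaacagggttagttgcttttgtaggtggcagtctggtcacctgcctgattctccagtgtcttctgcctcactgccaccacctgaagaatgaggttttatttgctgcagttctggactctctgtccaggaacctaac
Wwtr1, 105.5 kb: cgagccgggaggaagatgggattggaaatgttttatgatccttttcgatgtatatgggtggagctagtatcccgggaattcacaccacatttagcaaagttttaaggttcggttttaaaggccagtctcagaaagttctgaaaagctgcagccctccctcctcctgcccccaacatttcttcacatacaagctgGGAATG
Dchs1, 12.8 kb: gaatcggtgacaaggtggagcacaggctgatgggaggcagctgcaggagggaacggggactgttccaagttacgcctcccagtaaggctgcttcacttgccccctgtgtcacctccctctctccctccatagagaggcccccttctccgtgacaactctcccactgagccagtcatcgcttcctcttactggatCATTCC

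Only regions that hold the motif are shown and the windows were placed on it, so the capitals are not a finding. Other regions described below hold none, among them Tead1 at 152.2 kb, Fat4 at 69.3 kb, Lats2 at 49.0 kb and Wwtr1 at 64.2 kb. Over the central 500 bases of each region, GGAATG on either strand occurred in 26 of the 92 shared regions of the 10 genes (28.3%) and in 27.8% of 110665 shared regions genome-wide. The share was 3 of 8 regions at gene starts and 19 of 71 in introns. Among RefSeq promoters of 300 bases (GRCm38.p6), 14.7% of 32851 held the motif. Of the 7 member genes in that table, Yap1, Wwtr1, Tead3 and Lats2 had a promoter with it and Fat4, Tead2 and Lats1 had none. Counted by promoter as in the background, it was 6 of 11, some of which overlap within a gene. No share by gene was made for all genes. A Tead3 promoter (chr17:28350551-28350850, minus strand) held 3 matches. Tead1, Tead4 and Dchs1 were not in the table. A match is a description of letters and not evidence of binding.

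Peaks were called by the authors in each library separately. Overlap with the other library was found for 92 of the 123 member peaks of Enl-WT (74.8%) and for 95 of the 103 of Enl-T1 (92.2%), against 70.0% and 86.6% of all peaks. They were joined into 92 shared regions. Tead1, on chr7:112679318-112906807, was the longest gene of the list and held 37 of the shared regions. Lats2 (chr14:57689662-57758388) held 12, Wwtr1 (chr3:57455649-57575910) 11, Fat4 (chr3:38886940-39011985) 9, Tead4 (chr6:128224288-128300823) 8 and Dchs1 (chr7:105752990-105787654) 6. Yap1 (chr9:7931999-8004596) and Tead3 (chr17:28331671-28350817) held 4 each and Tead2 (chr7:45215753-45233644) 1. Lats1 (chr10:7681214-7716460) held none, so it has no level across libraries and no ratio, and the comparisons cover 9 of the 10 genes.

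Accessibility per kb of shared region put the genes in the same order in both libraries. Over all nuclei of Enl-WT, Tead3 stood at 23.6 CPM per kb and Tead2 at 23.4, Yap1 at 13.8, Dchs1 at 11.8, Fat4 at 9.22, Tead1 at 8.95, Tead4 at 8.79, Wwtr1 at 7.87 and Lats2 at 6.97. In Enl-T1 the span ran from 28.8 for Tead3 to 7.14 for Lats2. The only shared region of Tead2 is at its gene start, which raises its mean per kb.

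Fat4, a gene of the cadherin pair, differed most between the stroma and the tubular epithelium. In stroma-like nuclei the summed level of Fat4 was 146.8 CPM (142 to 152) in the Enl-WT library and 154 (149 to 160) in the Enl-T1 library, the highest of any class. Progenitor-like nuclei followed at 88.8 and 93.0 CPM, and endothelial-like nuclei at 74.8 and 92.0. Podocyte-like nuclei of Enl-WT had 64.3 CPM (53.2 to 76.9) and early nephron epithelium-like nuclei 56.5 (45.1 to 70.0), so these neighbours overlapped. The lowest levels were 29.8 CPM (25.6 to 34.4) in ureteric and 26.9 (22.6 to 31.7) in proximal tubule-like nuclei of Enl-WT, which also overlapped. Podocyte-like nuclei were present in Enl-WT alone, and 13 proximal tubule-like nuclei of Enl-T1 were too few to describe.

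Dchs1, the gene of its binding partner, was open in endothelial-like, stroma-like and immune-like nuclei alike. Its levels in Enl-WT and Enl-T1 were 113.5 and 105.8 CPM in endothelial-like nuclei, 99.4 and 107.8 in stroma-like nuclei and 93.7 and 98.3 in immune-like nuclei. Ureteric nuclei had the least, at 22.9 CPM (19.3 to 27.0) and 27.5 (23.9 to 31.5). Progenitor-like nuclei lay between, at 70.3 CPM (65.9 to 74.9) in the Enl-WT library and 49.5 (46.5 to 52.7) in the Enl-T1 library. Thus both cadherin genes were more open in stroma than in progenitor-like nuclei, in both libraries.

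Among the kinases, Lats2 was most open in endothelial-like nuclei, at 141.9 CPM (131 to 153) in the Enl-WT library and 116.4 (102 to 132) in the Enl-T1 library. Immune-like nuclei had 119.5 CPM (90.7 to 154) and 82.7 CPM, the first of which overlapped the endothelial level. Stroma-like nuclei had 99.8 and 85.5 CPM. Progenitor-like nuclei had 56.0 (52.1 to 60.1) and 46.7 (43.8 to 49.8), the lowest Enl-WT level, though it overlapped that of early nephron epithelium-like nuclei at 58.9 (47.2 to 72.6). The Lats2 window also overlaps the annotated gene Gm49361, and counts there belong to both.

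The 2 coactivator genes differed in how much they varied. Yap1 was nearly level over the kidney classes of Enl-WT, from 53.7 CPM (43.6 to 65.4) in podocyte-like to 73.4 (69.7 to 77.4) in stroma-like nuclei, and was low in immune-like nuclei, at 9.27 CPM (Enl-WT) and 14.7 CPM (Enl-T1). Wwtr1 was highest in endothelial-like nuclei, at 133.4 CPM (123 to 144) in the Enl-WT library and 167.9 (150 to 187) in the Enl-T1 library. It was at 106.8 and 92.7 CPM in stroma-like nuclei and at 78.4 and 83.7 CPM in progenitor-like nuclei.

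Each TEAD gene had an order of its own over the classes. Tead1 was highest in tubular epithelium of Enl-WT, with 429.3 CPM (411 to 448) in distal tubule or loop-like nuclei and 402.0 (386 to 418) in ureteric nuclei, which overlapped. Stroma-like nuclei had 277.0 CPM and 291.6 CPM in Enl-WT and Enl-T1. Tead3 was highest in ureteric nuclei (165.3 and 138.7 CPM) and stroma-like nuclei (143.3 and 126.9), and endothelial-like nuclei had the least (49.9 and 41.7).

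Tead4 showed the opposite at the endothelium, with 108.0 CPM (98.7 to 118) in the Enl-WT library and 106.6 (92.7 to 122) in the Enl-T1 library in endothelial-like nuclei. Its stroma-like nuclei had 63.5 and 58.5 CPM. In Enl-WT, early nephron epithelium-like nuclei (95.6 CPM, 80.5 to 113) and ureteric nuclei (94.3 CPM, 86.8 to 102) overlapped the endothelial level of Tead4. Tead2 stayed between 30.4 CPM in podocyte-like and 48.8 CPM in early nephron epithelium-like nuclei of Enl-WT, and these ends of its range overlapped narrowly (22.9 to 39.4 and 38.2 to 61.4). In immune-like nuclei Tead2 was at 10.3 and 9.19 CPM.

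**Figure D1:**
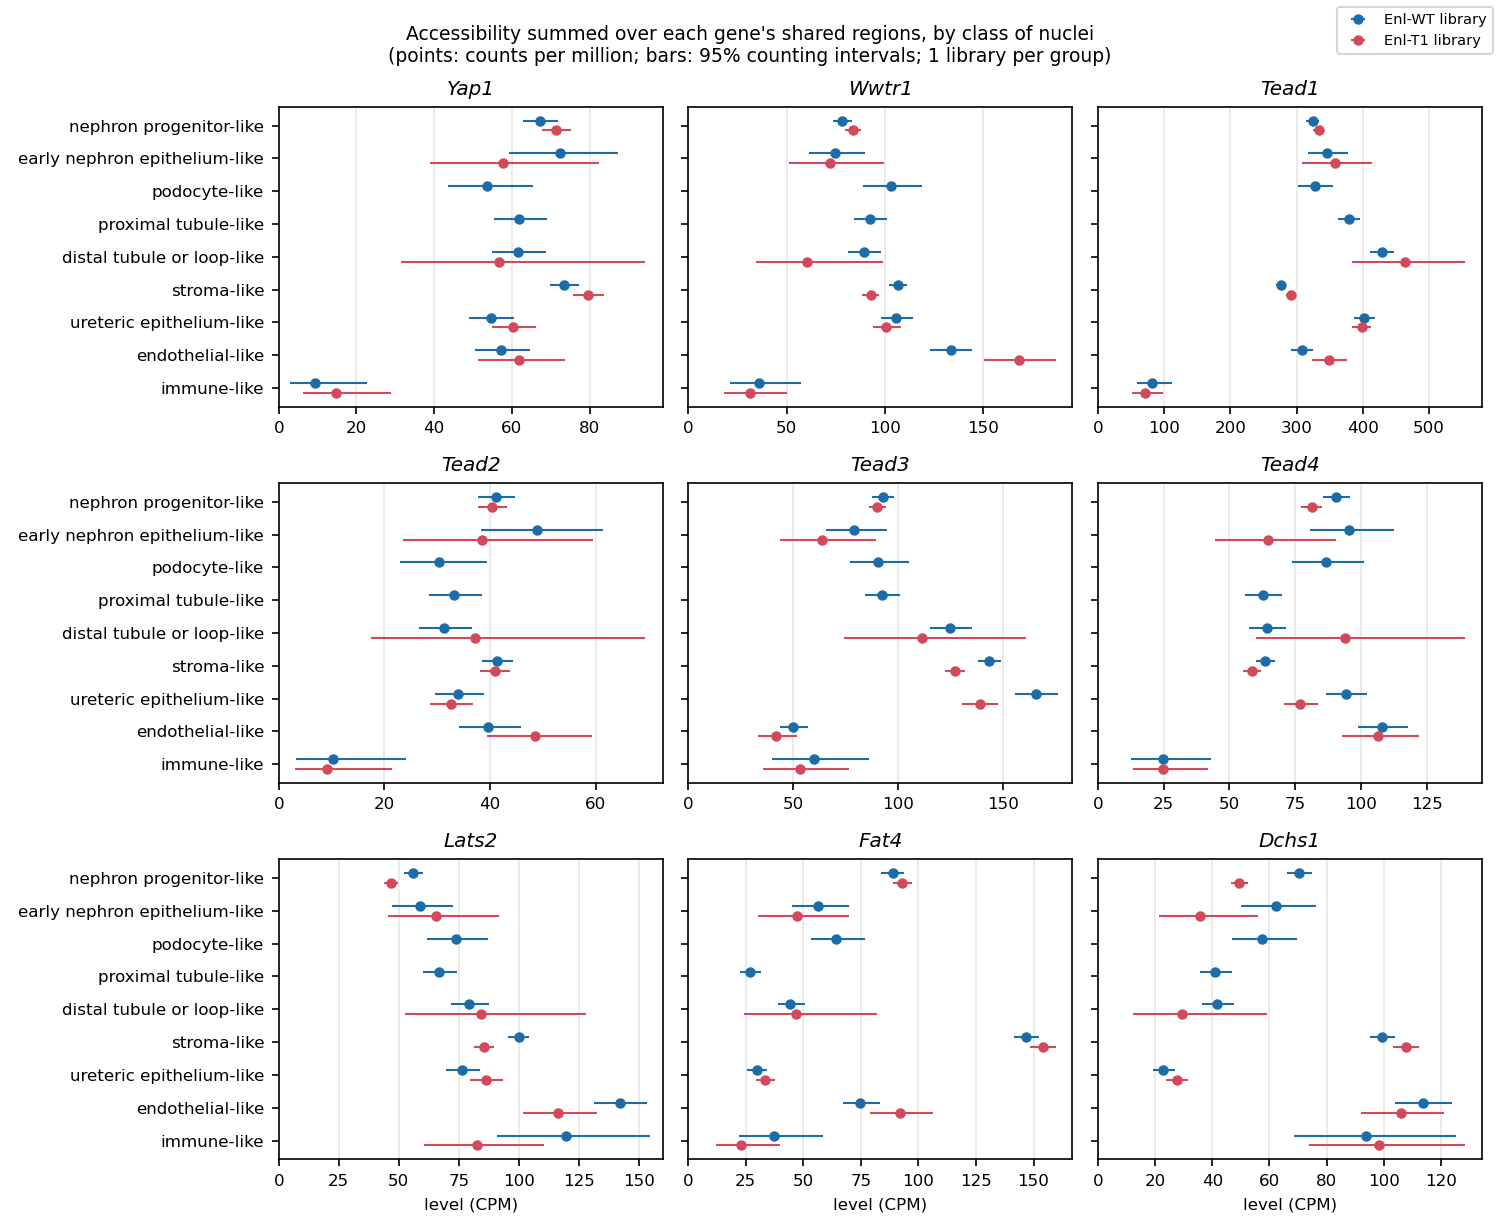
Summed accessibility of each gene's shared regions in 9 classes of nuclei, in CPM with 95% counting intervals, for the Enl-WT and Enl-T1 libraries. Fat4 is highest in stroma-like nuclei (146.8 and 154 CPM), Tead3 is highest in ureteric nuclei (165.3 and 138.7 CPM), and Wwtr1 and Lats2 have their highest values in endothelial-like nuclei.

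Over the 8 classes with at least 200 Enl-WT nuclei, 4 of the 9 genes spanned more than 2-fold in Enl-WT (6 when only regions matched at 80% reciprocal overlap were used). The spread sat away from the gene starts. The 8 regions at gene starts with a mean of at least 5 CPM spanned 1.29-fold to 3.48-fold between the lowest and highest class, with a median of 1.96-fold. The 50 regions elsewhere spanned 1.70-fold to 71.4-fold, with a median of 6.54-fold. Their central 500 bases also differed in base composition, with 71.2% GC at gene starts and 48.4% in introns. Mean levels differed too, at 18.42 to 51.15 CPM for the gene starts and 5.06 to 29.21 CPM for the regions elsewhere. Counting error widens a fold more at low levels, and its part in the spread was not tested. Of the regions compared, 14 were highest in endothelial-like and 13 in stroma-like nuclei, and 6 in progenitor-like nuclei.

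The Yap1 region 51.5 kb from the gene start (chr9:7952594-7953609) had the highest fold between classes among these regions, 71.4-fold, which rests on 1 count in podocyte-like nuclei. On the log2(CPM + 1) scale, Lats2 at 49.0 kb, Wwtr1 at 59.6 kb and Dchs1 at 19.7 kb spanned more. The Yap1 region stood at 19.3 CPM in progenitor-like and 12.5 CPM in early nephron epithelium-like nuclei of Enl-WT, while podocyte-like nuclei had 0.27 CPM and the other classes between 1.63 and 4.17 CPM. Enl-T1 gave 18.1 CPM in progenitor-like nuclei, so this region of Yap1 was open there in both libraries. Yap1 as a whole was nearly level over the classes, and this region was not.

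Of the region that varied most in each gene, those of 4 genes were highest in endothelial-like nuclei. The Wwtr1 region at 59.6 kb (chr3:57515785-57516882) had 28.5 CPM in endothelial-like nuclei of Enl-WT and 40.5 CPM in those of Enl-T1, against 0.67 to 2.17 CPM in the other kidney classes of Enl-WT. The Lats2 region at 49.0 kb (chr14:57708933-57709780) had 24.6 and 17.8 CPM there and at most 3.28 CPM in the other kidney classes of Enl-WT. The Tead4 region at 4.1 kb (chr6:128296178-128297320) had 33.5 and 28.7 CPM. At Dchs1, the region at 19.7 kb (chr7:105767486-105768506) had 31.4 and 24.9 CPM in endothelial-like nuclei and 23.7 and 31.2 CPM in immune-like nuclei, with 0.97 CPM in ureteric nuclei of Enl-WT. The Tead1 region at 144.5 kb was also highest there, at 52.7 and 50.8 CPM.

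Stroma and ureteric epithelium had such regions too. The Fat4 region at 36.7 kb (chr3:38923000-38924362) had 25.4 CPM in stroma-like nuclei of Enl-WT and 25.7 CPM in those of Enl-T1. Progenitor-like nuclei had 7.28 and 8.79 CPM at it and ureteric nuclei 0.97 and 2.05. The Tead1 region at 20.9 kb (chr7:112699762-112700623) had 26.4 and 23.5 CPM in ureteric nuclei, and 16.6 CPM in distal tubule or loop-like nuclei of Enl-WT. The Tead3 region at 9.6 kb (chr17:28340608-28341821) was highest in ureteric nuclei, at 45.0 and 37.7 CPM. At all of these regions the class that was highest in Enl-WT was also the highest in Enl-T1 among the 4 compared classes.

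**Figure D2:**
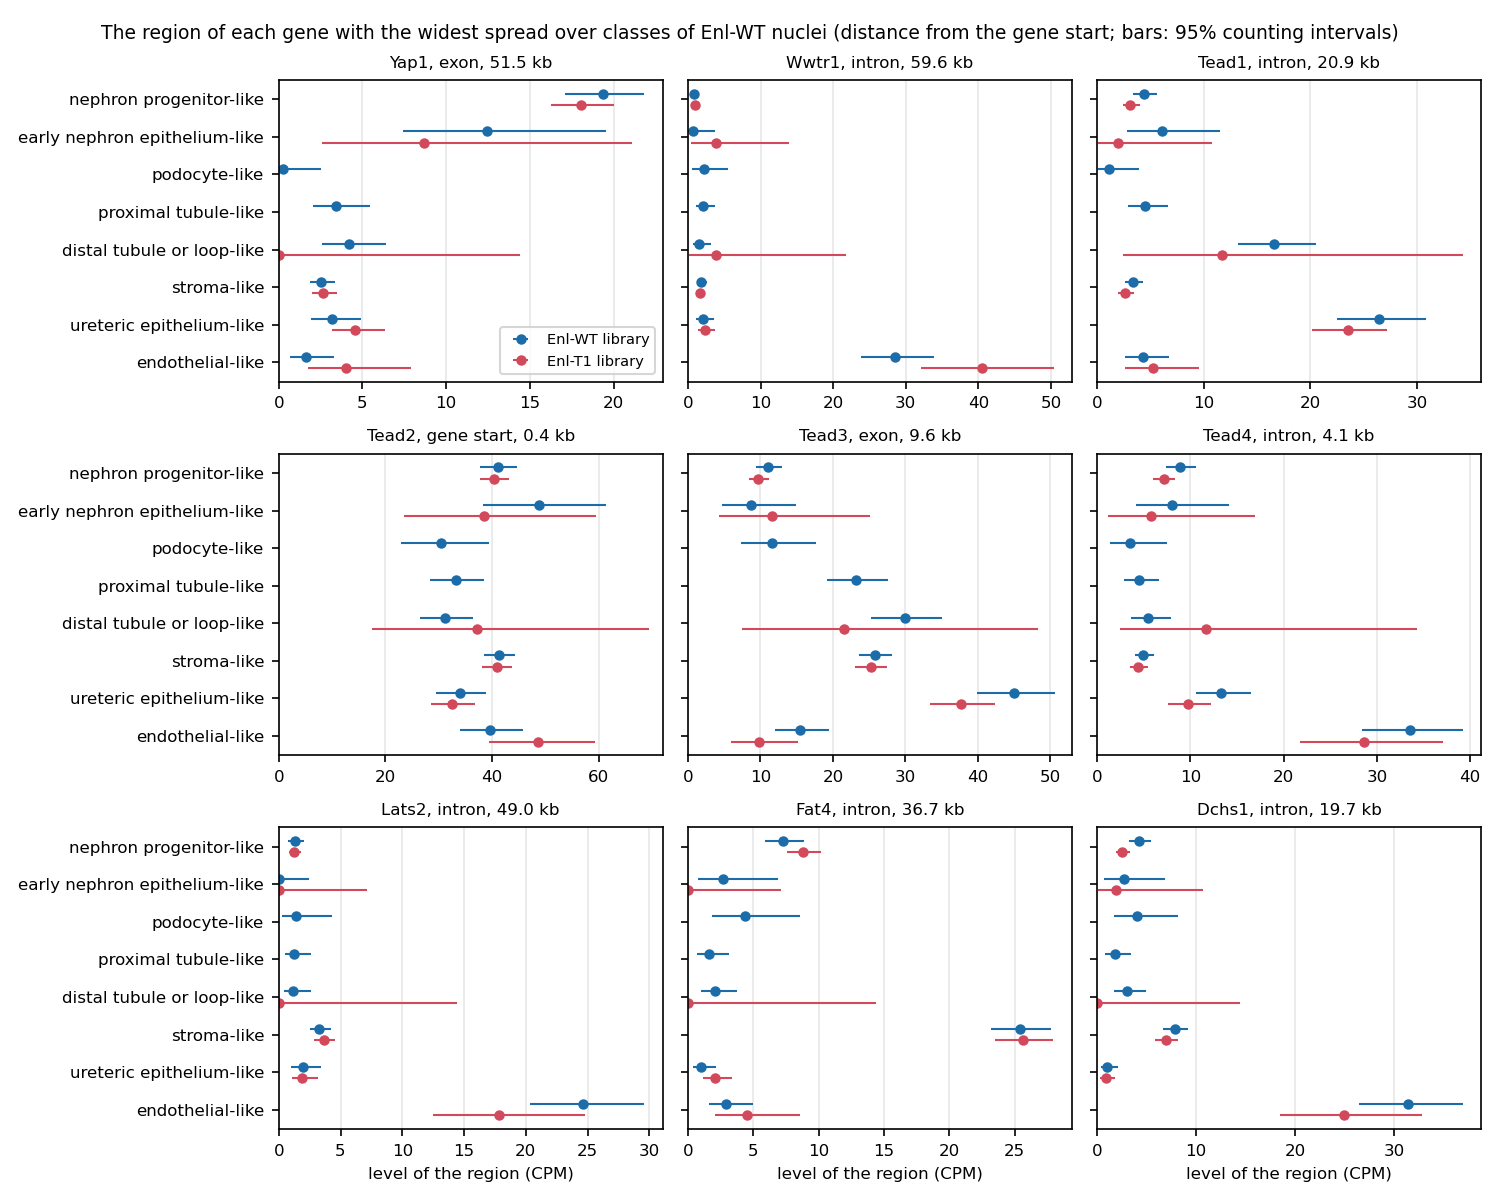
Level of the region of each gene that varied most over 8 classes of Enl-WT nuclei, in CPM with 95% counting intervals, in both libraries. The Yap1 region is open in progenitor-like nuclei (19.3 and 18.1 CPM), the Fat4 region in stroma-like nuclei (25.4 and 25.7 CPM) and the Wwtr1 region in endothelial-like nuclei (28.5 and 40.5 CPM).

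The comparison of Enl-T1 with Enl-WT describes how open chromatin differed between the 2 libraries within a class. It cannot separate the mutation from the library. At the level of whole genes, none of the 9 genes differed by more than 1.5-fold in any of the 4 classes. Among all protein-coding genes with at least 50 counts, 4.2% of 16806 did so in progenitor-like nuclei, 2.12% of 16827 in stroma-like nuclei, 3.03% of 16581 in ureteric nuclei and 5.04% of 15703 in endothelial-like nuclei. With shares this low, 0 of 9 does not set the genes apart from the rest. The median log2 ratio of Enl-T1 to Enl-WT over the 9 genes was -0.03 in progenitor-like, -0.02 in stroma-like, -0.01 in ureteric and 0.11 in endothelial-like nuclei, and the medians of all genes were 0.01, 0.00, -0.01 and 0.00.

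Dchs1 was the gene that differed most. In progenitor-like nuclei it had 1912 counts and 70.3 CPM in Enl-WT and 2004 counts and 49.5 CPM in Enl-T1, a log2 ratio of -0.51 (interval -0.64 to -0.38). This is short of 1.5-fold and lies at percentile 3.18 of all genes. It came to -0.99, past 1.5-fold, when only regions matched at 80% reciprocal overlap were used. That setting kept 4 of the 6 shared regions of Dchs1. It left out the start region, the only region of the gene with a log2 ratio above 0. After each nucleus was thinned to 5000 counts, 22.3% of Enl-WT and 16.1% of Enl-T1 progenitor-like nuclei held a Dchs1 count (37.3% and 21.7% before thinning), with 40 and 182 nuclei too shallow to use. Ureteric nuclei, the lowest class, had thinned shares of 7.37% and 8.71%. In stroma-like nuclei the ratio was 0.12 (0.03 to 0.21) and the thinned shares were 29.6% and 29.7%.

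The start region of Dchs1 and the regions inside the gene differed in direction. The start region, 1135 bases wide in Enl-WT and 1518 in Enl-T1, stood at 21.6 CPM in Enl-WT and 23.4 CPM in Enl-T1 progenitor-like nuclei, a log2 ratio of 0.11 (-0.10 to 0.33), and the part of its width in this value was not tested. All 5 regions inside the gene were lower, with log2 ratios of -1.05 at 2.9 kb, -0.74 at 9.4 kb, -1.24 at 12.8 kb, -0.75 at 19.7 kb and -0.45 at 25.5 kb, the last with an interval that reached 0.07. The Dchs1 region at 12.8 kb (chr7:105774386-105775327), whose sequence is given above, had 14.7 CPM in Enl-WT and 6.20 CPM in Enl-T1. In Enl-WT it was highest in stroma-like nuclei, at 25.5 CPM (22.7 CPM in Enl-T1).

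Sums of marker lists in the class differed between the libraries as well. In progenitor-like nuclei the 12 stroma markers summed to 310 CPM in Enl-WT and 279 CPM in Enl-T1, with 6 of the 12 higher in Enl-T1 and none at 0. This fall was not particular to stroma. The endothelial (321.9 and 288.5 CPM), immune (300.4 and 269.5) and podocyte (498.3 and 439.2) lists were also lower in Enl-T1. The erythroid (70.85 and 78.07) and neural or glial (148.7 and 152.6) lists were higher. The 10 progenitor markers summed to 416 and 346 CPM, with 3 higher in Enl-T1. The 9 early nephron markers summed to 417 and 505 CPM, with 6 higher in Enl-T1. The part of these marker differences in the member ratios was not tested. Against the Enl-WT cluster 2, the ratio of Dchs1 was -0.62 for Enl-T1 nuclei of cluster 0 alone, past 1.5-fold, and -0.39 for those of cluster 6 alone. Within cluster 2, with 91 Enl-T1 nuclei, it was 0.55, and the Dchs1 region at 12.8 kb stood at 20.8 CPM (9.50 to 39.5) in those nuclei on 18 counts.

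Lats2 and Tead4 were lower in Enl-T1 progenitor-like nuclei as well, at log2 ratios of -0.26 (-0.40 to -0.12) and -0.16 (-0.26 to -0.05). Yap1 (0.09), Wwtr1 (0.10), Tead1 (0.04), Tead2 (-0.03), Tead3 (-0.04) and Fat4 (0.07) had intervals that held 0. With only the regions matched at 80%, Wwtr1 turned to -0.68, past 1.5-fold. This setting left out the Wwtr1 start region (911 Enl-WT and 1457 Enl-T1 counts). It also left out the region at 105.5 kb (244 and 931 counts), the gain described below. Fat4 did not move with its partner Dchs1, and its thinned shares were 27.5% and 28.3%. All of the genes other than Dchs1 lay inside the 5th to 95th percentile of all genes in this class.

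In stroma-like nuclei, the other lineage in which the Cre acts, Lats2 had a log2 ratio of -0.22 (-0.32 to -0.13), Wwtr1 -0.20 (-0.29 to -0.11), Tead3 -0.17 (-0.25 to -0.10) and Tead4 -0.12 (-0.24 to -0.00). Yap1 stood at 0.12 (0.01 to 0.22), Tead1 at 0.07 (0.02 to 0.13), Fat4 at 0.07 (-0.01 to 0.14) and Tead2 at -0.02 (-0.16 to 0.13). All 9 genes lay inside the 5th to 95th percentile of all genes, -0.29 to 0.35.

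Ureteric and endothelial-like nuclei lie outside the Cre lineages. In ureteric nuclei Tead4 was at -0.29 (-0.46 to -0.13) and Tead3 at -0.25 (-0.38 to -0.13), Lats2 at 0.17 (0.00 to 0.35), Dchs1 at 0.27 (-0.05 to 0.59) and the other genes between -0.07 and 0.16. In endothelial-like nuclei Wwtr1 was at 0.33 (0.14 to 0.53), Fat4 at 0.30 (0.03 to 0.56), Tead1 at 0.18 (0.05 to 0.31) and Lats2 at -0.29 (-0.51 to -0.07). Tead2 (0.29), Yap1 (0.11), Tead3 (-0.26), Tead4 (-0.02) and Dchs1 (-0.10) had intervals that held 0 there. With only the regions matched at 80%, Yap1 (0.80) and Fat4 (0.86) passed 1.5-fold in endothelial-like nuclei. For Yap1 this setting left out the start region, with 493 Enl-WT and 219 Enl-T1 counts. The Yap1 regions kept held 15 and 16, 12 and 2, and 8 and 9 counts, so 0.80 rests on few counts. For Fat4 the setting kept 4 of 9 shared regions.

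**Figure D3:**
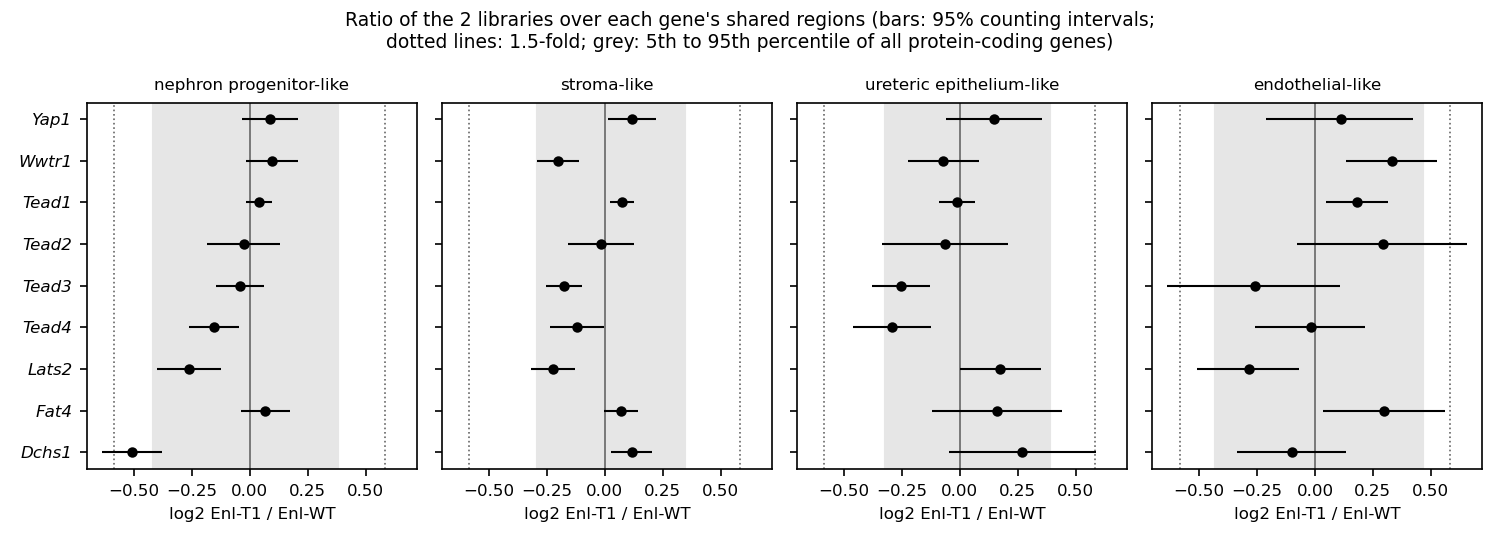
Log2 ratio of Enl-T1 to Enl-WT over the shared regions of each gene in 4 classes of nuclei, with 95% counting intervals, the 1.5-fold limits (dotted) and the 5th to 95th percentile of all protein-coding genes (grey). No gene passes 1.5-fold, and Dchs1 in progenitor-like nuclei (-0.51) is the farthest from 0.

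Single regions moved where whole genes did not. Of 83 member regions with at least 100 counts in progenitor-like nuclei, 9 were more open and 20 less open in Enl-T1 by over 1.5-fold, which is 34.9% against 25.4% of 96706 regions genome-wide. Among all regions the split was near even, with 13.1% more open and 12.4% less open. For the 51 member regions whose peaks matched at 80% reciprocal overlap, it was 6 and 11 (33.3%), against 23.4% of all such regions. In the other classes the share was at or below the background. It was 4 more open and 6 less open of 92 regions in stroma-like nuclei (10.9% against 15.2%), 3 and 4 of 62 in ureteric nuclei (11.3% against 11.8%) and 2 and 2 of 34 in endothelial-like nuclei (11.8% against 12.2%). Regions of 1 gene are not independent, and these shares were not tested.

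The largest gain was in the last part of Tead1. Its region at 213.4 kb (chr7:112892367-112893166) had 87 counts and 3.20 CPM in progenitor-like nuclei of Enl-WT and 508 counts and 12.5 CPM in those of Enl-T1, a log2 ratio of 1.97 (1.5 to 2.47). Both Enl-T1 clusters showed the high level, with 13.1 CPM in cluster 0 and 11.9 CPM in cluster 6, against 3.15 CPM in Enl-WT cluster 2. The 91 Enl-T1 nuclei of cluster 2 held 4 counts at the Tead1 region (4.62 CPM, 0.559 to 16.7). In Enl-WT the region was most open further along the nephron, at 13.5 CPM in early nephron epithelium-like and 16.0 CPM in distal tubule or loop-like nuclei. The 10 distal tubule or loop markers summed to 427.5 CPM in progenitor-like nuclei of Enl-WT and 531 CPM in those of Enl-T1, with 7 of the 10 higher, and their part in the gain was not tested. In stroma-like nuclei the same Tead1 region had 1.06 and 2.34 CPM, a log2 ratio of 1.15 (0.37 to 1.97).

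The Wwtr1 region at 105.5 kb (chr3:57469929-57470938) rose in counts from 244 to 931 in progenitor-like nuclei. Its level rose from 8.98 to 23.0 CPM, a log2 ratio of 1.36 (1.07 to 1.66). Its peaks, 916 bases wide in Enl-WT and 766 in Enl-T1, did not match at 80%. A peak beside it (chr3:57470960-57471357), held by Enl-WT alone with 101 counts in progenitor-like nuclei, entered no ratio. The few Enl-T1 nuclei of cluster 2 held 2 counts at the 105.5 kb region (2.31 CPM, 0.0585 to 12.9). It was also more open in Enl-T1 in ureteric nuclei, at 6.98 and 11.1 CPM (0.66, 0.12 to 1.23), and in endothelial-like nuclei, at 8.25 and 14.3 CPM (0.80, 0.04 to 1.54). The Tead1 region at 152.2 kb had a log2 ratio of 1.37 (0.79 to 1.99). Fat4 gained at 69.3 kb (chr3:38955788-38956731), from 7.43 to 14.8 CPM (1.00, 0.67 to 1.34), and at 67.5 kb (0.98, 0.18 to 1.86). In Enl-WT the Fat4 region at 69.3 kb was most open in stroma-like nuclei, at 19.6 CPM, where Enl-T1 had 24.7 CPM.

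The lowest ratios in progenitor-like nuclei lay in Lats2, Dchs1 and Wwtr1, and other losses past 1.5-fold lay in Tead1, Tead3, Tead4 and Fat4. The lowest ratio was at the Lats2 region 33.7 kb from the gene start (chr14:57724274-57725179), over an untranslated exon, with 115 counts and 4.23 CPM in Enl-WT and 50 counts and 1.24 CPM in Enl-T1 (-1.78, -2.52 to -1.08). Its neighbour at 34.6 kb was at -1.15 (-1.81 to -0.50). In stroma-like nuclei the Lats2 region at 33.7 kb was at a log2 ratio of -0.03 (-0.35 to 0.30). Wwtr1 lost at 64.2 kb, from 8.35 to 3.90 CPM (-1.10), and at 117.1 kb, over its last exon, from 8.53 to 4.12 CPM (-1.05), while it gained at 105.5 kb. At 64.2 kb the Enl-T1 clusters differed, with 2.44 CPM (1.68 to 3.43) in cluster 0 and 7.14 (5.21 to 9.55) in cluster 6, which overlapped the 8.40 (6.93 to 10.1) of Enl-WT cluster 2. Gains and losses inside Wwtr1 thus offset each other in its gene-level ratio.

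**Figure D4:**
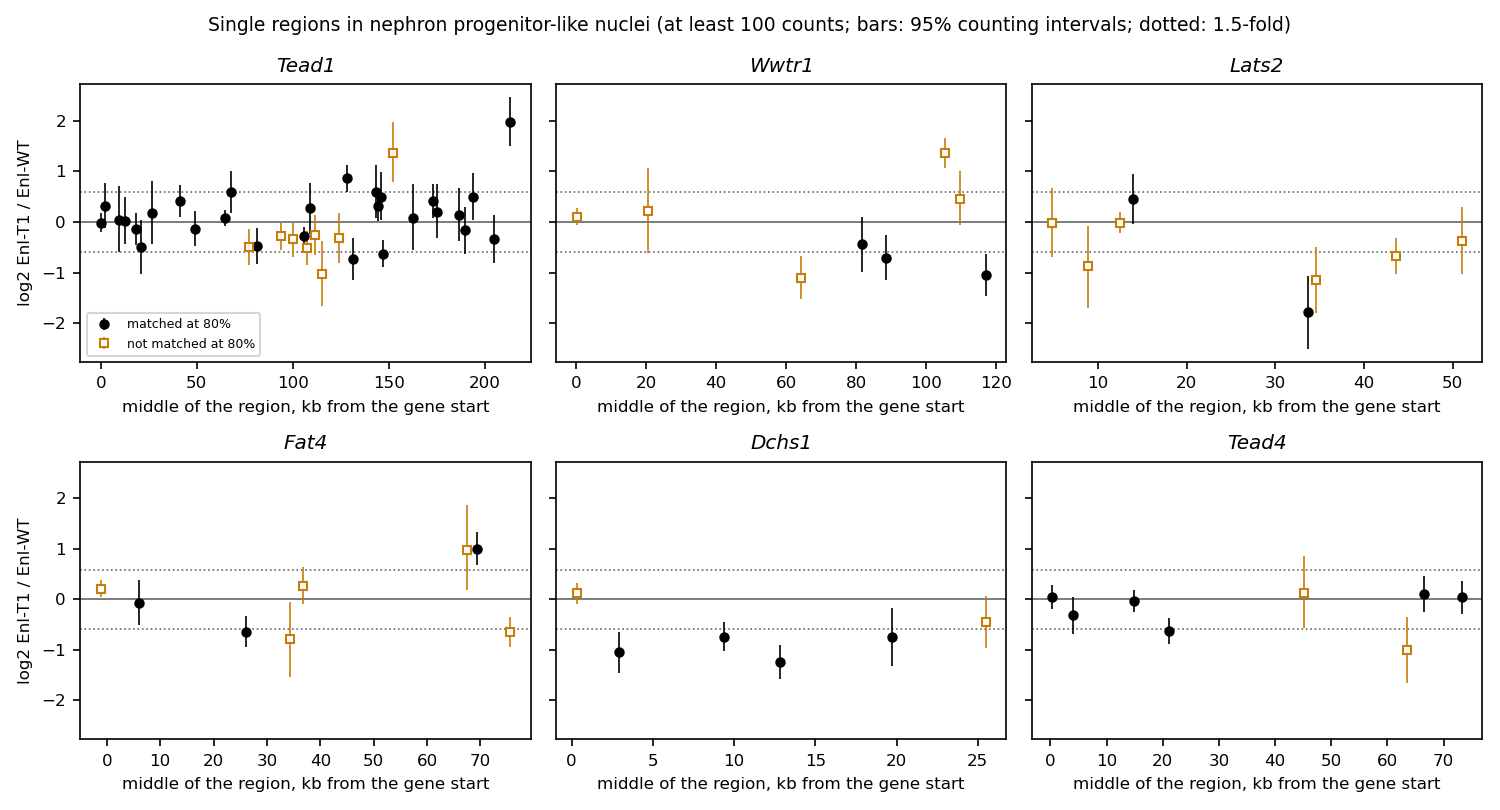
Log2 ratio of Enl-T1 to Enl-WT in progenitor-like nuclei for each region of 6 genes with at least 100 counts, by distance in kb from the gene start, with 95% counting intervals and the 1.5-fold limits (dotted). The Tead1 region at 213.4 kb is the highest (1.97), the Lats2 region at 33.7 kb is the lowest (-1.78), and the Dchs1 start region is above 0 while its other regions are below.

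Gene starts were steady by comparison. Over the 8 start regions, the log2 ratio in progenitor-like nuclei ran from -0.03 at Tead2 to 0.21 at Fat4 (0.04 to 0.37). In stroma-like nuclei it ran from -0.26 at Tead4 (-0.46 to -0.06) to 0.28 at Dchs1 (0.10 to 0.46). The lowest start ratio in the 4 classes was -0.43 (-0.77 to -0.08), at Tead4 in ureteric nuclei, and no start region shared by the libraries passed 1.5-fold. Fat4 has a start region at 0.7 kb held by Enl-WT alone, with 319 counts in progenitor-like nuclei, which entered no ratio. Lats2 has no shared region within 1 kb of its outer start, and regions at 12.5 and 13.9 kb hold the starts of its other transcripts.

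Ratios outside progenitor-like nuclei went along with the width of the called peaks. Across member regions, the log2 ratio correlated with the log2 ratio of covered bases (Pearson r, a description over regions that share genes and libraries) at 0.18 over 83 regions in progenitor-like, 0.38 over 92 in stroma-like, 0.42 over 62 in ureteric and 0.34 over 34 in endothelial-like nuclei. The Tead3 region at 5.0 kb was 1214 bases wide in Enl-WT and 696 in Enl-T1, and its log2 ratio was -0.61 in the stroma (-0.78 to -0.43) and -1.31 in ureteric nuclei (-1.71 to -0.92). The Lats2 region at 28.4 kb was 963 and 663 bases wide and at -1.55 (-2.59 to -0.65) in endothelial-like nuclei. The part of width in these values was not tested. In ureteric nuclei, with widths of 914 and 894 bases, the Dchs1 region at 12.8 kb was at 0.95 (0.08 to 1.90).

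The remaining regions at the ends of the ranges were mostly in Tead1. In stroma-like nuclei its region at 204.7 kb went from 2.53 to 6.08 CPM (1.27, 0.78 to 1.78) and that at 81.6 kb from 5.99 to 10.5 CPM (0.81, 0.47 to 1.15), while that at 109.2 kb was at -0.69 and that at 162.9 kb at -0.63. Also in stroma-like nuclei, Lats2 was at -0.66 at 4.8 kb and Wwtr1 at -0.63 at 109.7 kb. In ureteric nuclei, Tead1 was at -1.15 at 100.2 kb, Tead4 at -0.89 at 63.5 kb and Lats2 at 0.69 at 56.2 kb.

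Lats1 could be described only within each library. In Enl-T1 a region of 668 bases near its start (chr10:7681414-7682081), which also lies in the upstream window of the gene Pcmt1, had 2014 counts and 18.4 CPM (17.3 to 19.6). Because these regions are not shared, the levels given for them are per 1000000 counts over all peaks of the library or class and are not on the scale used above. Its level was 26.6 CPM in ureteric, 20.1 CPM in progenitor-like and 13.8 CPM in stroma-like nuclei. The Enl-WT regions of Lats1 lay elsewhere, in an intron at 18.1 kb (2.62 CPM) and over an exon at 34.2 kb (1.85 CPM). The Enl-WT level at the Lats1 start was not analysed here, so nothing follows about a difference. Across all 10 genes, 31 peaks were held by Enl-WT alone, with a median of 3.10 CPM, and 8 by Enl-T1 alone, with a median of 4.27 CPM.

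The rest of the pathway also lay mostly within 1.5-fold. Of 28 other pathway genes, among them the upstream kinases Stk3 and Stk4 and the adaptor Nf2, 1 passed 1.5-fold in progenitor-like nuclei, 0 in stroma-like, 1 in ureteric and 1 in endothelial-like nuclei, with medians of -0.03, -0.04, -0.01 and -0.03, which is no more than the shares of all genes given above lead to. Amotl1, which encodes an angiomotin that binds YAP, went from 86.3 CPM in Enl-WT to 56.4 CPM in Enl-T1 in progenitor-like nuclei (-0.61, -0.73 to -0.49). Vgll3, a TEAD cofactor gene, went from 20.3 to 31.1 CPM in ureteric nuclei (0.62, 0.30 to 0.94). Vgll2 was at -0.61 in endothelial-like nuclei, on 72 and 20 counts with an interval of -1.81 to 0.40.

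None of 11 genes listed as YAP and TEAD targets passed 1.5-fold in any class, with 10 of them having enough counts in endothelial-like nuclei. Their median log2 ratio was -0.01 in progenitor-like, -0.20 in stroma-like, 0.10 in ureteric and 0.01 in endothelial-like nuclei. In stroma-like nuclei Nuak2, a kinase gene, went from 62.3 to 41.7 CPM (-0.58, -0.71 to -0.45) and Ccn1 from 28.6 to 23.5 CPM (-0.28, -0.46 to -0.10), while Ccn2 was at -0.07 (-0.24 to 0.10). These are accessibility values, and no RNA was measured in these libraries.

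Over 16 columns of class and library, the genes whose log2(CPM + 1) was most like that of each member were described by Pearson r among 12983 genes. They were Negr1 (0.912) and Fbn1 (0.896) for Fat4, and Rnf216 (0.939) and Vim (0.927) for Dchs1. Nfatc1 (0.896) and Csrnp1 (0.886) came first for Lats2, Ptprg (0.977) and Pcdhgb7 (0.970) for Yap1, and Baalc (0.939) and Hspb8 (0.926) for Wwtr1. Those for the TEAD genes were Esrrb (0.978) and Bcl11b (0.971) for Tead1, Armcx4 (0.980) and Ptprg (0.966) for Tead2, Carmil3 (0.885) and Sphk1 (0.880) for Tead3, and Map1b (0.915) and Synm (0.914) for Tead4. The columns share libraries and nuclei of related classes, and the values carry no test. They include immune-like nuclei of both libraries. In these, Yap1 (9.27 and 14.7 CPM), Tead1 (82.4 and 71.7) and Tead2 (10.3 and 9.19) were far below their levels in the kidney classes. The part of the immune-like columns in r was not tested.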

How the data were processed

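The snATAC-seq data comprised 1 Enl-WT and 1 Enl-T1 library of E15.5 kidneys. Per the labels and the submitters' processing notes, the authors processed reads against mm10 with Cell Ranger ATAC 2.1.0 and deposited raw counts per peak and barcode, with peaks called in each library separately and no normalisation. Enl-WT held 138176616 counts in 9628 barcodes and Enl-T1 110265593 in 13376. Barcodes with 2000 to 100000 counts were kept. Both ends of a fragment are counted, so intervals used counts divided by 2 (exact Poisson for levels, exact binomial for ratios and shares, 95%). The study's filters on fragments, blacklisted regions and start-site signal need fragment files and were not applied. Doublets were not removed in the values reported.

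Peaks overlapping by at least 1 bp were joined into 110706 shared regions. Nuclei of both libraries were clustered together without integration on components 2 to 30 of latent semantic indexing (Leiden, resolution 1, 15 neighbours; leidenalg 0.10.2, igraph 0.11.9, scikit-learn 1.9.0, Python 3.11.15) and clusters were named by marker genes. Clustering and naming settings were chosen after the clusters, but not the members' values by class, had been seen. A gene's count was the sum over shared regions in its body and 2 kb upstream, scaled to counts per 1000000 (CPM) of the class total in shared regions, with 0.5 added to both counts only for ratios across all genes and regions. A difference was counted past 1.5-fold with at least 50 counts for a gene or 100 for a region over both libraries. The ratio step was tested on simulated data.

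The 10 genes and the lists were chosen with earlier results of these data known. The text names all 10 genes, their start regions, the 5 highest and 5 lowest region ratios per class (others of these by count), the widest region per gene over classes, up to 5 pathway genes past 1.5-fold and the 2 most alike genes per member. Ccn1, Ccn2 and Nuak2 were named after their values were seen. Alternatives covered scaling, region matching, gene starts alone, a minimum of 5000 counts, clustering resolution 0.5, components 2 to 15, a mutual nearest neighbour correction, doublet removal, a naming lead of 0.2 and thinning to 5000 counts.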

Additional observations from a re-analysis of the deposited data

Results flagged for a closer look

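Some Enl-T1 to Enl-WT ratios, on the log2 scale, had intervals on opposite sides of 0 in different classes, and each difference between classes was not tested because there was 1 library per group. Wwtr1 was at 0.33 in endothelial-like and -0.20 in stroma-like nuclei. Lats2 was at 0.17 in ureteric and -0.29 in endothelial-like nuclei. Dchs1 was at 0.12 in stroma-like and -0.51 in progenitor-like nuclei. The Dchs1 region at 12.8 kb was at 0.95 in ureteric and -1.24 in progenitor-like nuclei.

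Lats1 entered no comparison because its peaks in the libraries did not overlap, yet each library held signal at it. In counts per 1000000 over all peaks of the library, the region near its start was at 18.4 CPM in Enl-T1, and regions at 18.1 and 34.2 kb were at 2.62 and 1.85 CPM in Enl-WT.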

How the results depend on the processing

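The members' median log2 ratio was compared with a range between the medians of the single genes' lower and upper counting limits. This range is not a counting interval of the median itself, and staying inside it is a weak check. The median stayed inside it under all 44 values from the alternatives set out in advance and the 5 added after seeing the data. Over the former it ranged from -0.09 to 0.07 in progenitor-like nuclei, from -0.15 to 0.06 in the stroma, from -0.10 to 0.09 in ureteric epithelium and from 0.01 to 0.25 in endothelium. The count of genes past 1.5-fold was 0 in each class. With only regions matched at 80% reciprocal overlap, it was 2 in progenitor-like nuclei (Wwtr1 -0.68, Dchs1 -0.99) and 2 in endothelial-like nuclei (Yap1 0.80, Fat4 0.86). That setting left out the start regions of Wwtr1, Dchs1 and Yap1, and the Yap1 value rests on few counts. The count was 1 in progenitor-like nuclei with components 2 to 15 (Dchs1 -0.61). Among alternatives added after seeing the data, it was 1 with Enl-T1 cluster 0 alone against cluster 2 (Dchs1 -0.62) and 1 within cluster 2 alone (Wwtr1 -0.59). Within cluster 2, which holds 91 Enl-T1 nuclei, ratios in progenitor-like nuclei turned direction at the Wwtr1 region at 105.5 kb (-1.97, on 2 Enl-T1 counts), the Lats2 region at 33.7 kb (0.12, on 4) and the Dchs1 region at 12.8 kb (0.51, on 18), and the cause was not tested. Under the alternatives set out in advance, 359 single-gene values stayed inside their counting interval and 29 left it, and 319 single-region values stayed and 1 left. The single-region values cover only the regions with the highest and lowest ratios per class. Region matching, gene starts alone and thinning were not applied to them, so their dependence on peak matching was not tested. No paired analysis was possible because each group holds 1 library. Leaving out a replicate was not possible for the same reason. Depth limits single regions most, since those under 100 counts over both libraries were not compared.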
